A study of Homo sapiens with 6 samples.

Results

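The 10 transcription factors TP63, KLF4, KLF5, GRHL3, OVOL1, ELF3, EHF, GATA3, FOXA1 and SOX9, which set basal, squamous and luminal identity in epithelia, were followed in MCF10.AT1 cells and in their fluvastatin-resistant derivative, MCF10.AT1-R. They were chosen by name and are 10 of the 81496 gene symbols on the array. MCF10.AT1 is a preneoplastic, HRAS-transformed derivative of MCF10A, a line of human breast epithelium, and it was the untreated, fluvastatin-sensitive parent. MCF10.AT1-R was selected from it by culture in fluvastatin, a statin that inhibits HMG-CoA reductase, at doses of 1, 5 and up to 20 µM. Both lines therefore share the parental origin, and MCF10.AT1-R is 1 selected line. A change of its genotype during selection was not tested here. Whether fluvastatin was in the medium when RNA was taken is not given in the sources used here. Total RNA was measured on 6 Clariom D arrays, which the labels describe as biological replicates of the lines. The comparison used 2 arrays of MCF10.AT1 (A01 and A02) and 3 of MCF10.AT1-R (B02, B03 and B04), and the remaining MCF10.AT1 array, A03, is given apart. Values are log2 expression values, so a difference of 1 is a doubling, and each of the 10 genes had 1 probe set. Probe sets bind RNA with different strength, so levels were not compared between genes, apart from naming the highest values of some marker lists.

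In stratified epithelia and in the mammary gland, p63 (the product of TP63) maintains basal cells and switches on their keratins and adhesion genes. KLF4, GRHL3 and OVOL1 act as cells leave the basal layer and differentiate, whereas KLF5 supports proliferating epithelial cells. ELF3 and EHF are epithelium-specific factors of the ETS family, GATA3 and FOXA1 maintain the luminal, hormone-responsive cells of the breast, and SOX9 marks mammary progenitor cells.

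The promoter windows of the 2 factors that rose, TP63 and EHF, are shown because motifs bound by the other factors can be looked for in them. RefSeq promoter windows on GRCh38.p14, each from 250 bases before to 50 bases after an annotated start, were matched for 8 of the 10 genes, in 16 windows. OVOL1 and SOX9 had no entry. The TP63 window was chr3:189631139-189631438 on the plus strand, the first EHF window chr11:34624007-34624306 on the plus strand and the second EHF window chr11:34632316-34632615 on the plus strand. Capitals mark CACCC, a core bound by KLF factors, and its reverse complement GGGTG.
TP63 promoter window: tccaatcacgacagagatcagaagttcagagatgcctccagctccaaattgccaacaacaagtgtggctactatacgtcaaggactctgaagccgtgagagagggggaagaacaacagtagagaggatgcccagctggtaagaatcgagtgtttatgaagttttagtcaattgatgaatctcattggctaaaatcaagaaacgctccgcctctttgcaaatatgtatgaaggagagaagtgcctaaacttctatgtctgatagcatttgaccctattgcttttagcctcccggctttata
EHF promoter window 1: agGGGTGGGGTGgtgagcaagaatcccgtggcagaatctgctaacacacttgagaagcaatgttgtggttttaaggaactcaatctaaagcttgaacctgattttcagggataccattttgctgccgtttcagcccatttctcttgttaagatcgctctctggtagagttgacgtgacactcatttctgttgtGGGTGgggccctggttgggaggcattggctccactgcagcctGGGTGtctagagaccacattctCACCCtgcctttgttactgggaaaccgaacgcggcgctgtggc
EHF promoter window 2: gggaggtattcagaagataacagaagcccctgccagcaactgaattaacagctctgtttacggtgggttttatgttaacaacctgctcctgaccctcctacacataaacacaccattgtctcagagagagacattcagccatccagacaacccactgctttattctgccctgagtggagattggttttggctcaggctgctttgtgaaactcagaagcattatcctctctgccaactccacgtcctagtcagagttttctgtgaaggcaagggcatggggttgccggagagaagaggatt
The first EHF window held CACCC 5 times over both strands, and the TP63 window and the second EHF window did not hold it. Of all 35116 windows of this length, 59.9% held CACCC. AACCNGTT, the letters searched for GRHL factors, was in none of the 3 windows shown and in 1.73% of all windows, and a single copy of the motif that p63 and its family bind as a pair of copies was in none of the 3 and in 6.63% of all. The second EHF window held GATAA, the core bound by factors such as GATA3, 2 times, where 22.7% of all windows had it. It also held TGTTTAC, a forkhead core, 1 time, where 3.42% of all windows had it. ACAAAG, a SOX core, was found 1 time in each EHF window and in 16.1% of all windows. GGAA, the ETS core, was found 1 time in the TP63 window, 2 times in the first EHF window and not in the second, and in 95.5% of all windows. Both strands were searched, and a match or its absence describes the letters searched only. The TP63 window covers 1 annotated start, and the single TP63 probe set does not tell isoforms of the gene apart.

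TP63 and EHF were the only factors of the 10 that rose in MCF10.AT1-R past the false discovery rate (FDR) of 5%, each by somewhat over 3-fold, and none fell. Both calls were lost when A03 was counted as an MCF10.AT1 array, with log2 changes of 1.89 for TP63 and 1.95 for EHF. They were also lost when values were raised to the level of the negative control probe sets, with changes of 1.74 and 1.72. A filter on low and invariant values left 9 of the 10 genes in the test and removed GATA3, whose values were too close to each other. Among all 51457 probe sets tested, 0.758% were higher past FDR 5% in MCF10.AT1-R and 0.447% were lower. The values of the 5 arrays, without regard to the test, ran without overlap between the lines for 6 of the 10 factors. TP63, EHF, GRHL3, KLF5 and GATA3 were higher on every MCF10.AT1-R array than on A01 and A02, and KLF4 was lower. Among all probe sets tested, 12.9% were higher without overlap and 13.8% were lower without overlap. The median change of the 10 factors was 0.40, against 0.01 over all 135750 transcript probe sets. OVOL1 was within the negative control probe sets on all 5 arrays, and the other 9 factors were above them on all 5.

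**Figure D1:**
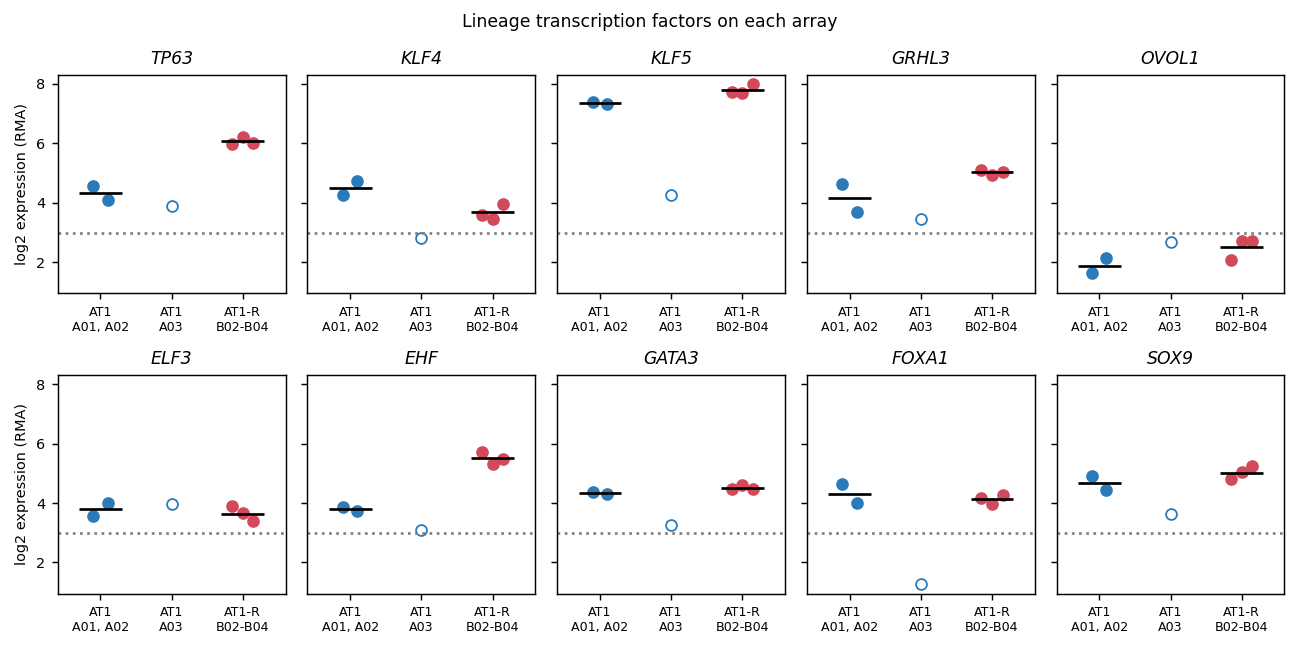
Log2 expression (vertical axis) of the 10 transcription factors on each array, by line, with A03 drawn as an open circle and the dotted line at 2.99, the upper limit set from the negative controls (their 95th percentile, averaged over the 5 arrays). TP63 lay at 4.08 and 4.55 in MCF10.AT1 and at 5.97 to 6.20 in MCF10.AT1-R, and the OVOL1 values lay below the dotted line.

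TP63 was at 4.55 and 4.08 on A01 and A02 of MCF10.AT1, and at 5.97, 6.20 and 6.03 on the arrays of MCF10.AT1-R. All 3 MCF10.AT1-R arrays were higher than both MCF10.AT1 arrays, and the gap between the lines was wider than the spread within either. The means were 4.32 ± 0.33 (SD, n = 2) and 6.06 ± 0.12 (SD, n = 3). The change was 1.74 (SE 0.31, 95% interval 1.13 to 2.36), a 3.35-fold rise, with a limma adjusted p of 8.14e-06. This SE was the same for every gene tested, because limma gave all of them the same SD. With the low-expression filter alone, without the filter on invariant values, the limma adjusted p of TP63 was 0.029.

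EHF, which drives epithelial genes and is known from glandular and squamous epithelia, was at 3.85 and 3.72 on A01 and A02, and at 5.72, 5.33 and 5.47 on the MCF10.AT1-R arrays. The parental arrays were close to each other, and every MCF10.AT1-R array lay well above them. The means were 3.79 ± 0.09 (SD, n = 2) and 5.51 ± 0.20 (SD, n = 3), a change of 1.72 (95% interval 1.11 to 2.33), or 3.29-fold, with a limma adjusted p of 1.25e-05. With the low-expression filter alone it was 0.0245. ELF3, the other epithelial ETS factor among the 10, was at 3.57 and 4.001 in MCF10.AT1 and at 3.89, 3.65 and 3.39 in MCF10.AT1-R. Its lines overlapped, and its difference of -0.14 (95% interval -0.75 to 0.47) did not pass the test (limma adjusted p = 0.915). In bulk RNA, more cells that express a gene and more RNA of it per cell cannot be told apart, and this holds for every change given here.

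GRHL3, a grainyhead factor needed for barrier formation in the epidermis, was at 4.64 and 3.68 in MCF10.AT1 and at 5.09, 4.93 and 5.04 in MCF10.AT1-R. The MCF10.AT1-R arrays were the higher ones and close together, but A01 lay nearer to them than to A02. The difference of 0.86 (95% interval 0.25 to 1.47) missed the threshold (limma adjusted p = 0.223), and it was 1.34 without A01 and 0.38 without A02. OVOL1, a zinc finger factor that restrains proliferation as cells differentiate, was at 1.63 and 2.14 in MCF10.AT1 and at 2.08, 2.71 and 2.72 in MCF10.AT1-R. These values overlapped between the lines and lay within the negative controls on every array compared, so no fold is given (limma adjusted p = 0.589).

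The 2 Krüppel-like factors differed in sign, and neither passed the test. KLF4 was at 4.26 and 4.72 in MCF10.AT1 and at 3.58, 3.46 and 3.97 in MCF10.AT1-R, so that every MCF10.AT1-R array was below both MCF10.AT1 arrays. The difference was -0.82 (95% interval -1.43 to -0.21), with a limma adjusted p of 0.281 over all probe sets. KLF5 was at 7.40 and 7.31 in MCF10.AT1 and at 7.73, 7.68 and 7.98 in MCF10.AT1-R. Its arrays did not overlap either, and the difference was 0.44 (95% interval -0.17 to 1.05, limma adjusted p = 0.790).

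The luminal factors GATA3 and FOXA1 were measured above the negative controls on all 5 arrays and showed no change past the threshold. GATA3 was at 4.37 and 4.31 in MCF10.AT1 and at 4.46, 4.60 and 4.49 in MCF10.AT1-R. The MCF10.AT1-R arrays were higher without overlap by a small margin, and the difference in a fit without the filter was 0.18 (95% interval -0.24 to 0.59). FOXA1, which opens chromatin for hormone receptors, was at 4.63 and 4.01 in MCF10.AT1 and at 4.18, 3.97 and 4.26 in MCF10.AT1-R. The lines overlapped, with a difference of -0.18 (95% interval -0.79 to 0.43, limma adjusted p = 0.889). SOX9 was at 4.91 and 4.42 in MCF10.AT1 and at 4.79, 5.04 and 5.25 in MCF10.AT1-R, which overlapped as well. Its difference was 0.36 (95% interval -0.25 to 0.97, limma adjusted p = 0.828), and it was 0.60 without A01 and 0.12 without A02.

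**Figure D2:**
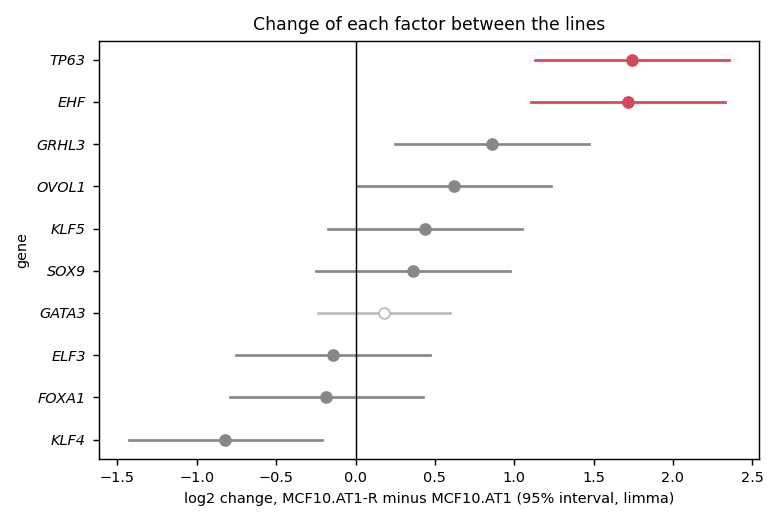
Log2 change (horizontal axis, MCF10.AT1-R minus MCF10.AT1) of each of the 10 factors with its 95% interval from limma, in order of size, with red for a change past FDR 5% and the hollow point for GATA3, which was outside the test. The intervals of TP63 and EHF began at 1.13 and 1.11, and those of KLF5, SOX9, GATA3, ELF3 and FOXA1 included 0.

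The relatives of the 10 factors, 31 genes of the same families, included 25 that were tested, of which 1 rose past FDR 5% and none fell. Over all probe sets tested, 0.758% rose and 0.447% fell. The median change of all 31 was 0.00. The gene that rose was OVOL2, a relative of OVOL1 that represses mesenchymal genes in epithelial cells. It was at 3.98 and 3.64 in MCF10.AT1 and at 4.71, 4.91 and 5.29 in MCF10.AT1-R, without overlap between the lines. Its change of 1.16 was a 2.24-fold rise (limma adjusted p = 0.0212), which did not pass with the low-expression filter alone (adjusted p = 0.176). GRHL2, a grainyhead factor that maintains epithelial adhesion genes, differed by 0.84 (limma adjusted p = 0.249), with arrays that did not overlap. TP73, a relative of TP63, was within the negative controls on all 5 arrays. In the ETS family the 5 relatives differed by -0.17 to 0.64, against 1.72 for EHF. The 11 further KLF genes differed by -0.69 to 0.58, the 2 GATA genes by -0.12 to 0.33, the 2 FOXA genes by -0.14 to 0.12 and the 5 SOX genes by -0.67 to 0.21. These ranges include ELF5, GATA2 and KLF15, which were within the negative controls on all 5 arrays. The differences between relatives were not tested.

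**Figure D3:**
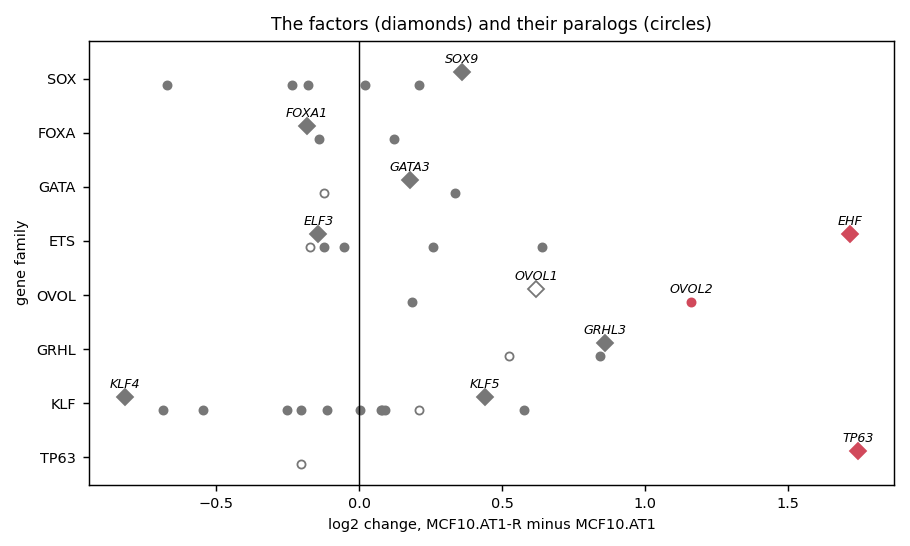
Log2 change (horizontal axis, MCF10.AT1-R minus MCF10.AT1) of the 10 factors and their relatives reported here, by gene family (vertical axis), with red for changes past FDR 5% and hollow points for genes within the negative controls on all 5 arrays. TP63, EHF and OVOL2 were past the threshold, at 1.74, 1.72 and 1.16.

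The other regulators of squamous differentiation were a list of 14 genes, of which 9 were tested, 2 rose and none fell past FDR 5%. Over all probe sets tested, 0.758% rose and 0.447% fell. OVOL2, described above, was among the risen genes. The median change of the 14 genes was 0.21. GRHL1, ZNF750 and BARX2, named after their values were seen, were within the negative controls on all 5 arrays.

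None of the 8 luminal regulators tested, of 11 listed, passed FDR 5%, and the median change of the 11 was -0.01. TBX3, a T-box repressor active in mammary development, was at 6.70 and 6.53 in MCF10.AT1 and at 5.79, 5.57 and 5.95 in MCF10.AT1-R. It was lower on every MCF10.AT1-R array, with a difference of -0.85 that did not pass the test (limma adjusted p = 0.240) and did with the trend option of limma (adjusted p = 0.00495). CITED1, a co-activator of the estrogen receptor, differed by 0.75 (limma adjusted p = 0.386) with overlapping arrays. PGR and ELF5, named after their values were seen, were within the negative controls on all 5 arrays. Of 5 regulators of basal mammary cells, 4 were tested and none passed FDR 5%. SNAI2, a repressor of luminal genes, differed by 0.41 (limma adjusted p = 0.808). BCL11A was within the negative controls on all 5 arrays, so no difference is given (limma adjusted p = 0.703).

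Of the genes known as targets of p63, 4 of the 10 tested rose in MCF10.AT1-R past FDR 5% and none fell. Over all probe sets tested, 0.758% rose and 0.447% fell. The list held 12 genes, with a median change of 0.74, and 11 of the 12 were higher without overlap between the lines. Among all probe sets tested, which leave out some of the 12 genes, 12.9% were higher and 13.8% lower without overlap. The exception was ZNF750, which was lower without overlap but lay within the negative controls on all 5 arrays. KRT14, a keratin of basal cells that pairs with KRT5, was at 5.94 and 5.85 in MCF10.AT1 and at 8.20, 8.08 and 8.52 in MCF10.AT1-R, a 5.17-fold rise (limma adjusted p = 2.36e-11). KRT5 rose 3.28-fold (limma adjusted p = 1.35e-05), from 8.77 ± 0.04 (SD, n = 2) to 10.48 ± 0.08 (SD, n = 3). COL17A1, a collagen of the hemidesmosomes that anchor basal cells, rose 3.64-fold (limma adjusted p = 1e-06). With the low-expression filter alone the limma adjusted p was 0.00718 for KRT14, 0.0139 for KRT5 and 0.0098 for COL17A1. Whether p63 bound or acted on these genes was not measured.

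Of the genes of the suprabasal, differentiating layers, 6 of the 14 tested rose past FDR 5% and none fell. Over all probe sets tested, 0.758% rose and 0.447% fell. The list held 18 genes, with a median change of 0.53. KLK7, a protease that sheds cornified cells, was at 4.45 and 4.60 in MCF10.AT1 and at 9.15, 9.10 and 9.23 in MCF10.AT1-R, a 24.9-fold rise (limma adjusted p = 7.92e-46). IVL, a protein of the cornified envelope, rose 9.39-fold (limma adjusted p = 9.18e-22), from 3.51 ± 0.10 (SD, n = 2) to 6.74 ± 0.44 (SD, n = 3). SPRR1A rose 4.39-fold (limma adjusted p = 5.2e-09). SPRR2A, which like SPRR1A is cross-linked into the envelope, was at 1.82 and 2.26 in MCF10.AT1, within the negative controls, and at 5.19, 3.93 and 5.04 in MCF10.AT1-R (limma adjusted p = 1.1e-14). CDSN, an adhesive protein of cornified cells, rose by 1.14 on the log2 scale (limma adjusted p = 0.0269). With the low-expression filter alone KLK7, IVL and SPRR1A passed at larger values (limma adjusted p = 0.000683, 0.00718 and 0.00718). With that filter SPRR2A, CDSN and KRT1, the last of the 6, did not pass (limma adjusted p = 0.0615, 0.199 and 0.0966). TGM1, FLG, KRTDAP, DSG1 and DSC1, named after their values were seen, were within the negative controls on all 5 arrays. The list was written with KLK7 and some of the other risen genes already known from these arrays.

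Of the luminal epithelial genes, 4 of the 12 tested rose and none fell past FDR 5%, against 0.758% and 0.447% of all probe sets tested. The median change of all 15 was 0.11. CD24, a surface protein of luminal cells, was at 4.43 and 4.64 in MCF10.AT1 and at 8.28, 7.92 and 8.17 in MCF10.AT1-R, a rise of 3.59 on the log2 scale (limma adjusted p = 5.47e-27). KRT19, a keratin of simple epithelia, rose 7.54-fold (limma adjusted p = 1.41e-17). MUC1, a mucin of the apical surface, changed by 1.26 (limma adjusted p = 0.00789), and KRT8, another simple keratin, by 1.11 (limma adjusted p = 0.0358). These 2 genes did not pass with the low-expression filter alone (limma adjusted p = 0.0504 and 0.0898), and CD24 and KRT19 did (limma adjusted p = 0.00155 and 0.00205). Of the 15 genes, 6 were within the negative controls on all 5 arrays and 9 were above them on all 5.

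**Figure D4:**
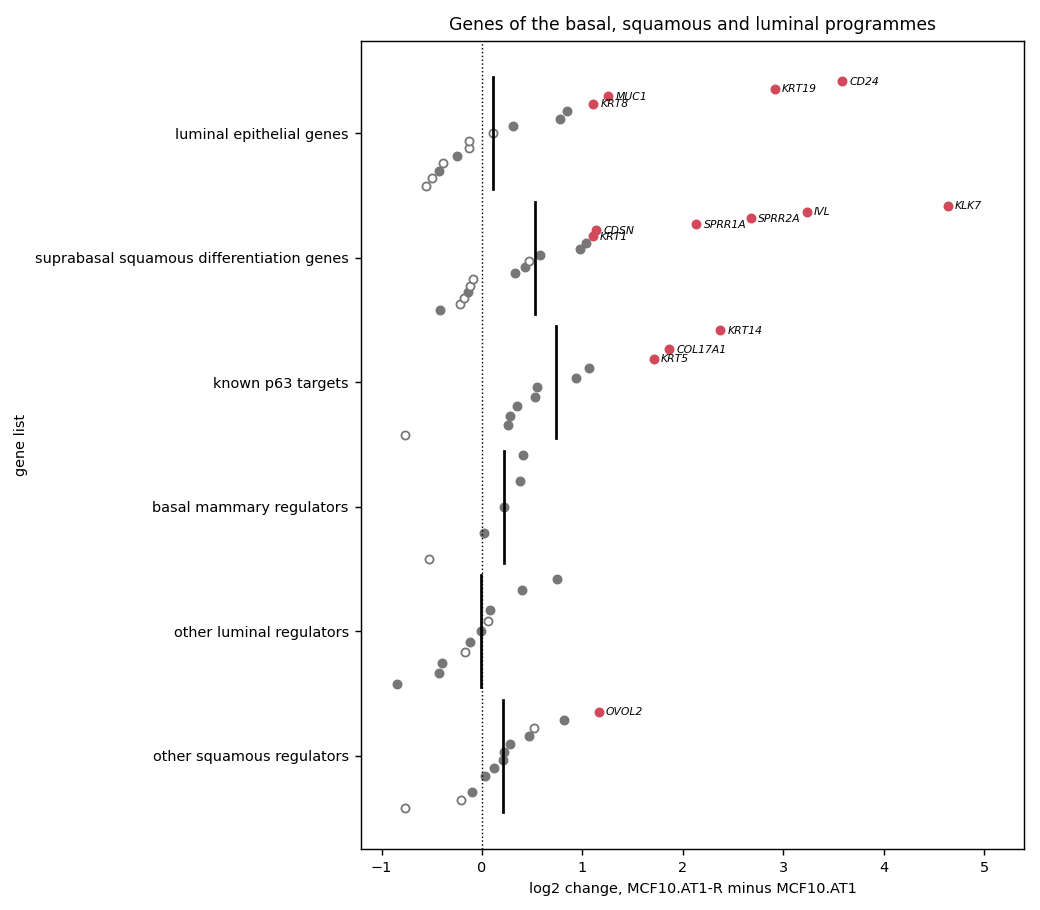
Log2 change (horizontal axis, MCF10.AT1-R minus MCF10.AT1) of the genes reported in 6 lists of regulators and of genes of the basal, squamous and luminal programmes, with black bars at the medians of the whole lists, red for changes past FDR 5% and hollow points for genes within the negative controls on all 5 arrays. The medians of the known p63 targets and of the suprabasal genes were 0.74 and 0.53, and that of the luminal regulators was -0.01.

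The labels call the cells breast cancer, and the markers of breast epithelium were present: CDH1, EPCAM, KRT5, KRT14, KRT17 and KRT18 were above the negative controls on all 5 arrays. Of these 6 genes, 4 rose past FDR 5%, where 0.758% of all probe sets tested rose. Among the 4 were KRT17, a keratin induced in injured and basal-like epithelium, by 16.9-fold (limma adjusted p = 3.63e-35), and CDH1, the adhesion protein of epithelia, by 1.30 on the log2 scale (limma adjusted p = 0.00481). With the low-expression filter alone the limma adjusted p was 0.000885 for KRT17 and 0.0469 for CDH1. The log2 values of the 6 genes summed to 45.2 and 44.8 in MCF10.AT1 and to 55.9, 55.5 and 56.7 in MCF10.AT1-R, so that these sums were higher in the line where TP63 and EHF were higher. KRT18 had the highest values of this list in MCF10.AT1. Of 5 markers of cornified keratinocytes, KRT1 and CDSN rose past FDR 5%, FLG was within the negative controls on all 5 arrays, LOR was between 2.58 and 3.00, and KRT10 differed by 0.58 (limma adjusted p = 0.652). Their log2 values summed to 15.7 and 15.5 in MCF10.AT1 and to 17.5, 17.7 and 19.0 in MCF10.AT1-R, and CDSN had the highest values. The part of differentiated cells in the changes of the factors was not tested.

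No marker of fibroblasts, endothelium, leukocytes, melanocytes or adipocytes rose past FDR 5%, and 2 fell. Of 6 fibroblast genes, DCN fell by 2.15 on the log2 scale (limma adjusted p = 3.88e-09, and 0.0248 with the low-expression filter alone), from 5.32 ± 0.01 (SD, n = 2) to 3.17 ± 0.37 (SD, n = 3). Its MCF10.AT1-R values of 3.49, 2.76 and 3.25 lay near the negative control limit of 2.99, so the size of the fall is uncertain. The fibrillar collagens COL1A1, COL1A2 and COL3A1, removed by the filter, differed by -0.16 to 0.15. LUM and PDGFRB were within the negative controls. The fibroblast sums were 27.0 and 27.7 in MCF10.AT1 and 25.3, 24.8 and 25.6 in MCF10.AT1-R, and COL1A1 had the highest values of the list. Of 3 endothelial genes PECAM1 changed by -1.12 (limma adjusted p = 0.0308, and 0.123 with the low-expression filter alone), to 3.05, 3.03 and 3.42 in MCF10.AT1-R, also near that limit. The endothelial sums were 11.99 and 11.8 against 10.9, 10.2 and 10.6. VWF had the highest mean of that list in both lines. Of 3 leukocyte genes the 2 tested did not pass, PTPRC, removed by the filter, was within the negative controls, and the sums were 7.97 and 9.94 against 9.39, 9.79 and 10.1. The 4 melanocyte genes MLANA, PMEL, TYR and DCT did not exceed the negative controls on any of the 5 arrays. Of the adipocyte genes ADIPOQ was within them and PLIN1 differed by -1.06, with overlapping arrays. The part of these markers in the changes of TP63 and EHF was not tested.

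A03, the MCF10.AT1 array that was left out of the comparison, stood apart from the others. Its correlation with each of the other 5 arrays was 0.779 to 0.795 over all transcript probe sets, where the other 5 arrays correlated at 0.967 to 0.977 with each other. On A03 the values were 3.89 for TP63, 3.08 for EHF, 3.47 for GRHL3, 2.82 for KLF4 and 4.26 for KLF5. They were 2.66 for OVOL1, 3.95 for ELF3, 3.25 for GATA3, 1.28 for FOXA1 and 3.63 for SOX9. Of the 10 factors 8 were lower on A03 than the mean of A01 and A02, and 6 were above the 95th percentile of the negative controls of that array. The breast epithelial markers summed to 22.7 on A03. With A03 added to A01 and A02, TP63 and EHF stayed higher without overlap, with changes of 1.89 and 1.95, but neither passed the test (limma adjusted p = 0.247 and 0.281). The adjusted p ranged from 4.75e-10 to 0.247 for TP63 and from 5.07e-08 to 0.281 for EHF over all 17 alternatives. With A03 counted, KLF4 overlapped between the lines, with a change of -0.26, and FOXA1 turned to 0.83. KLF5 moved to 1.47, GATA3 to 0.54 and SOX9 to 0.71, and none of these passed the test.

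**Figure D5:**
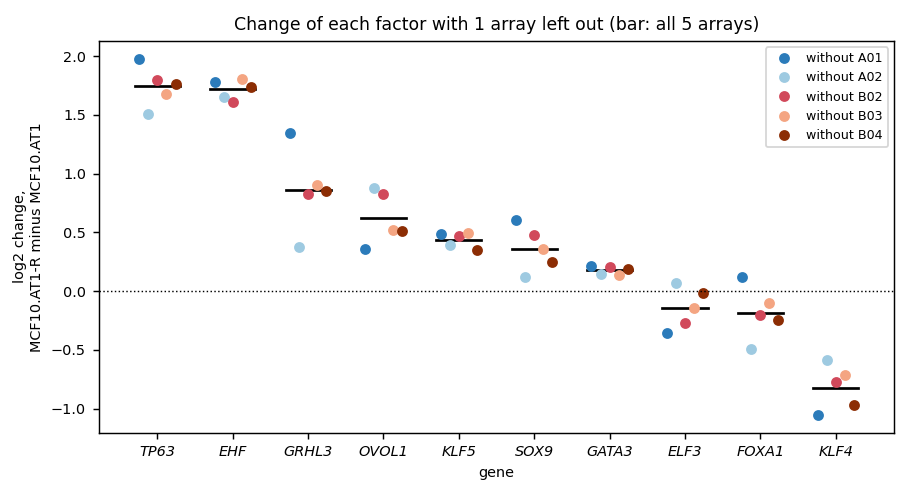
Log2 change (vertical axis, MCF10.AT1-R minus MCF10.AT1) of each of the 10 factors (horizontal axis). Black bars show the comparison of the 5 arrays, and points show it without each of those arrays in turn. The TP63 change ran from 1.51 to 1.98 and the EHF change from 1.61 to 1.80 as single arrays were left out, GRHL3 ran from 0.38 to 1.34, and FOXA1 and ELF3 crossed 0.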

How the data were processed

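Total RNA of MCF10.AT1 and MCF10.AT1-R was hybridised to 6 Clariom D arrays. The authors deposited log2 expression values made by RMA (named in the submitters' processing notes), with the affy and oligo packages per the methods. The deposited values were used as given, for all 6 arrays and 138745 probe sets, of which 2995 are controls. The labels do not tie array names to samples, and the line of each array (A parental, B resistant) was taken from a legend of the study. No column was left unmapped (0).

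A03 was removed as in the study's methods. Probe sets with a mean above the median (1.88) and an SD above the lowest 25% (0.18) over the 5 arrays were tested, 51457 of 135750, in R 4.3.3 with limma 3.58.1 (lmFit, then eBayes) and Benjamini-Hochberg adjustment at FDR 5%. The filter limits are not those of the study, which are not given in the sources used here. After the SD filter, limma gave every probe set the same SD (0.34). The SE of 0.31 was therefore the same for every probe set tested. The SE, interval and p of a tested gene thus did not use the spread of its own arrays. The fit was tested on simulated data, where the share of false calls exceeded the nominal one. Negative controls were 612 probe sets, and a value was called above them when it exceeded 2.99, the mean over the 5 arrays of their 95th percentile. A03 was compared with its own 3.15. With no counts, the number of arrays limits the precision.

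The factors and gene lists were chosen with earlier results of these data known, so their counts are descriptions. Some genes are on more than 1 list, and a few listed genes enter the counts, medians and sums but are not reported here individually. Named genes were all 10 factors, the genes of each list past FDR 5% (at most the 5 with the largest change), the 2 with the largest change among those tested where fewer than 2 passed, and any cell type marker. Alternatives concerned the arrays, the filters, the variance model, the normalization, the handling of several probe sets and a floor. The limit at the negative control percentile replaced both the mean and the SD limit. The filter on low expression alone, together with limma's trend option, changed both the filter and the variance model and was added after seeing the data.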

Additional observations from a re-analysis of the deposited data

How the results depend on the processing

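The rises of TP63 and EHF passed FDR 5% in 15 of 17 alternatives, with positive changes in all 17. They were lost when A03 was counted (1.89 and 1.95, limma adjusted p = 0.247 and 0.281) and when values were raised to the negative control floor (1.74 and 1.72, adjusted p = 0.132 and 0.0951), where 18256 probe sets, 35.5% of those tested, had no variance left. Of the 10 factors, 7 kept their direction in every alternative. OVOL1, below the floor on all 5 arrays, had no difference left with the floor. FOXA1 turned to 0.83 with A03 counted, and as single arrays were left out it ran from -0.49 to 0.12 (without A01). ELF3 ran from -0.36 to 0.073 (without A02).

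Over all probe sets 620 calls were made. The count was 26 with A03, 182 with the low-expression filter alone, 177 with no filter, 355 with the mean above the negative control percentile, 1377 with the trend option, 177 with the floor, 1086 with the low-expression filter and the trend option, and 280 to 575 as single arrays were left out (280 without A02). The 10 factors had 2 calls, and 0 with A03 or with the floor. Their relatives had 1 call, and 0 with A03, the low-expression filter alone, no filter, the negative control percentile or the floor, 3 with the trend option alone or combined, and 0 to 1 as arrays were left out. Other squamous regulators had 2 calls, 0 with A03 or the floor, 1 with the low-expression filter alone, no filter or the negative control percentile, and 1 to 2 as arrays were left out. Luminal regulators had 0 calls, and 1 with the trend option alone or combined. The p63 targets had 4 calls, 0 with A03, 3 with the floor, 7 with the trend option alone or combined, and 4 as each array was left out. They had 6 with the negative control percentile, and 5 with array weights, with robust eBayes or with the mean of probe sets per symbol. Suprabasal genes had 6 calls, 2 with A03 or the floor, 3 with the low-expression filter alone, and 4 to 7 as arrays were left out. They had 4 with no filter, 5 with the negative control percentile, 7 with the mean of probe sets per symbol and 8 with array weights. Luminal genes had 4 calls, 0 with A03, 2 with the low-expression filter alone or no filter, 7 with the trend option alone or combined, and 2 to 3 as arrays were left out. They had 3 with the floor or with quantile normalization over the 5 arrays. The cause of these differences was not tested.

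No paired analysis was possible because the columns carry no replicate numbers. With 2 parental arrays, 1 of them weighs heavily: KLF4 differed by -1.05 without A01 and by -0.59 without A02.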
